A study of Homo sapiens with 12 samples.

Results

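The 10 genes described here encode the receptors IGF1R, IGF2R and INSR, the receptor adaptors IRS1 and IRS2 and the secreted binding proteins IGFBP1 to IGFBP5. They were taken by symbol from the deposited tables of 2 cell lines, and all 10 symbols were present among the 58174 genes of either table. Poly-A-enriched RNA had been sequenced from Hep-G2, an established line derived from a hepatoblastoma, a tumour of the embryonic liver, and from BE(2)-C, an established line derived from a neuroblastoma, a tumour of the sympathetic nervous system. Each line contributed 3 libraries of cells that had received a control siRNA, called siC, and 3 of cells that had received a pool of siRNAs against IGF2BP1, called siI1, which makes 4 groups and 12 libraries. All cells were harvested 72 h after transfection. The comparison within a line asks which transcripts differ in amount once IGF2BP1, an oncofetal RNA-binding protein, has been depleted. A single siRNA pool was used, and effects of this pool on other transcripts than IGF2BP1 were not tested.

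Insulin-like growth factors signal through the tyrosine kinase IGF1R, and IGF2 also signals through an isoform of the insulin receptor INSR, while IGF2R lacks kinase activity and carries IGF2 and mannose-6-phosphate-tagged enzymes to lysosomes. Activated IGF1R and INSR phosphorylate IRS1 and IRS2, which dock phosphatidylinositol 3-kinase and so switch on AKT, mTOR and the inhibition of FOXO transcription factors. IGFBPs hold the ligands outside the cell, where they prolong their life and restrict or deliver them to the receptor, and the liver is a main source of circulating IGFs and of IGFBP1, whereas neuroblastoma cells are known to make and to respond to IGF2.

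Levels are given as FPKM, the reads counted on a gene per kilobase of its length and scaled to the number of reads of the library, so that they can be compared between genes of a line. Between 12852988 and 15721210 reads per library had been counted on genes. Each table was scaled on its own, and between the lines only the changes were tested. Fold changes compare siI1 with siC on a log2 scale after 0.1 had been added to each FPKM value; this constant makes the changes of weakly expressed genes look smaller than they are. Errors are the SD of 3 libraries unless given as SE. The authors' methods call the 3 libraries of a group biological replicates, but neither the methods nor the labels say whether they came from separate cultures, so the p-values measure only the spread between these libraries, which may be technical.

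Transcripts that define the labelled tissues were found where the labels put them. All 10 hepatocyte and hepatoblast markers reached 1 FPKM in every Hep-G2 library, led by ALB with a mean of 4619 FPKM, and 8 of the 10 stayed below 0.1 FPKM in every BE(2)-C library. All 10 markers of sympathoadrenal neuroblasts reached 1 FPKM in every BE(2)-C library, led by MYCN with a mean of 1778 FPKM, and 9 of the 10 stayed below 0.1 FPKM in every Hep-G2 library. IGF2BP1 (ENSG00000159217, chr17:48997385-49056145 of hg38), the target of the siRNAs, had 48.5, 46.6 and 50.8 FPKM in the siC libraries 1, 2 and 3 of Hep-G2 and 12.6, 10.7 and 10.7 FPKM in the siI1 libraries. In BE(2)-C it had 21.3, 20.6 and 21.6 FPKM in the siC and 4.85, 4.75 and 4.87 FPKM in the siI1 libraries. It thus fell by 2.1 on the log2 scale in Hep-G2 (SE 0.08, adjusted p = 7.83e-06) and by 2.11 in BE(2)-C (SE 0.05, adjusted p = 1.48e-05), and the difference between these changes was 0.02 (95% confidence interval -0.19 to 0.22). Its paralog IGF2BP2 had means of 28.7 and 26.0 FPKM in siC and siI1 of Hep-G2 (log2 fold change -0.14, adjusted p = 0.106) and was close to 0 in BE(2)-C. The paralog IGF2BP3 had means of 13.3 and 12.4 FPKM in Hep-G2 (adjusted p = 0.383) and rose in BE(2)-C from 8.59 ± 0.398 to 10.9 ± 0.113 FPKM (log2 fold change 0.34, adjusted p = 0.00418).

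The control cells of both lines made IGFBP4 above the other 9 genes, and they differed in nearly everything below it. In siC of Hep-G2, IGFBP4 (83.3 ± 5.80 FPKM, n = 3) was followed by IGFBP1 (57.2 ± 6.53) and IGF2R (45.8 ± 2.79), then at a distance by IGF1R (6.92 ± 0.283), IRS1 (6.45 ± 0.788), INSR (4.96 ± 0.209) and IGFBP2 (2.02 ± 0.152). IGFBP3, IRS2 and IGFBP5 all had means below 0.1 FPKM there. The libraries of IGF1R and IRS1 overlapped in level, as did those of IGFBP3, IRS2 and IGFBP5, whereas the other neighbours in this order did not. In siC of BE(2)-C, IGFBP4 (196 ± 17.5 FPKM) was followed by IGFBP2 (134 ± 12.8), IGFBP5 (16.0 ± 1.20), IGF2R (12.3 ± 0.611), IGF1R (10.3 ± 0.405), IRS2 (7.14 ± 0.345), INSR (1.63 ± 0.277), IRS1 (1.49 ± 0.261) and IGFBP3 (0.374 ± 0.107), and no read fell on IGFBP1. Only INSR and IRS1 overlapped among these neighbours. Hep-G2 cells therefore carried IRS1 with hardly any IRS2, and BE(2)-C cells more IRS2 than IRS1. The plot of FPKM per gene and library shows these levels with the change in each line.

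**Figure D1:**
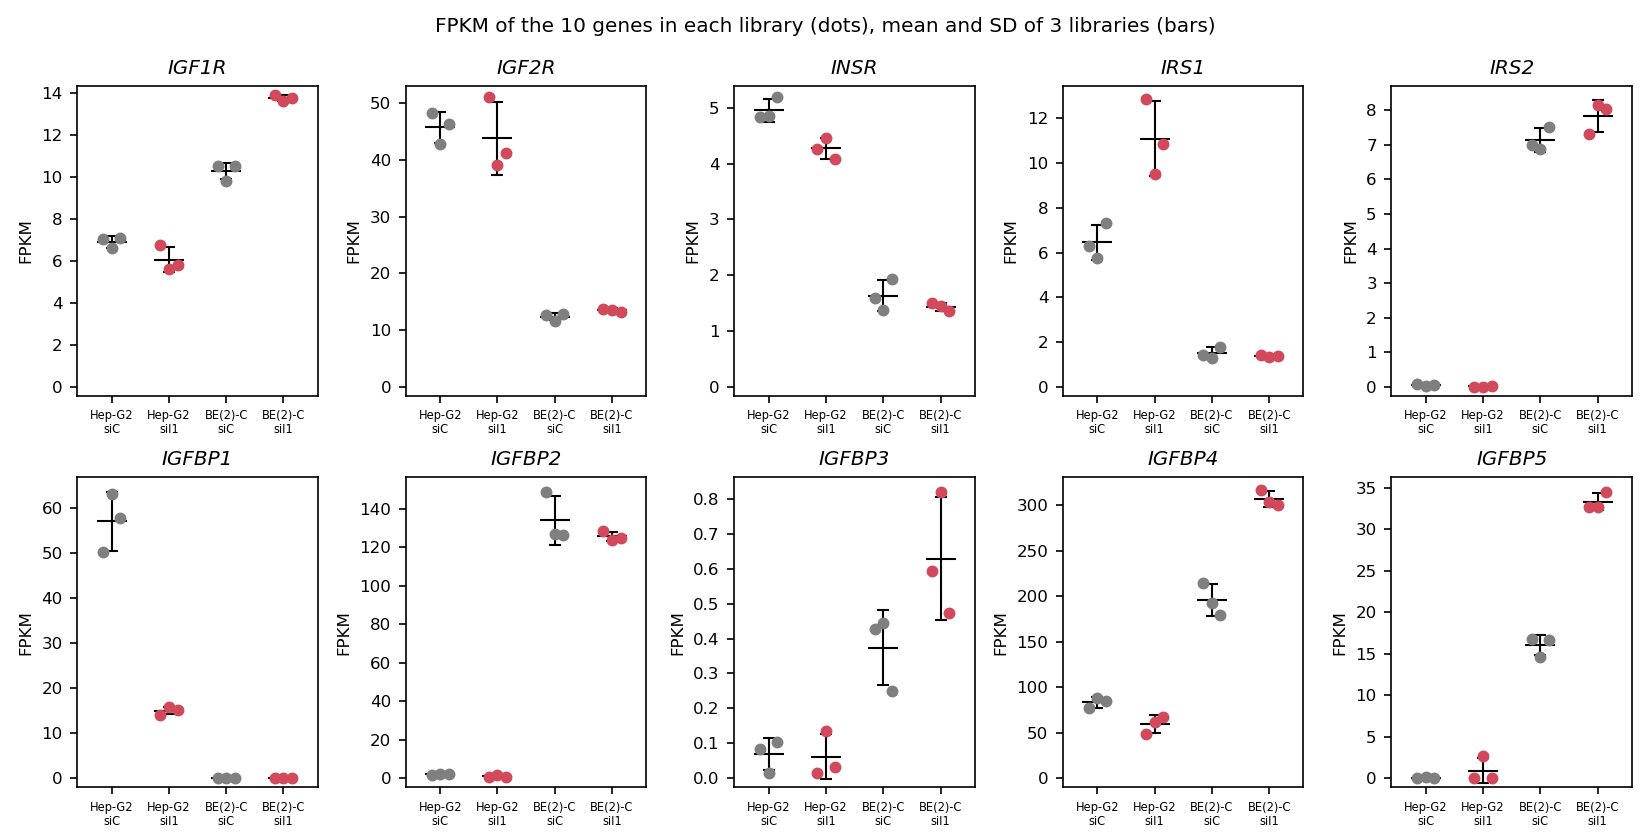
Each panel shows the FPKM of a gene in the 12 libraries (dots, grey for siC and red for siI1) with the mean and SD of the 3 libraries of a group (bars), on a linear axis of its own. IGFBP1 is present in Hep-G2 alone, between 50.3 and 63.3 FPKM in siC and between 14.1 and 15.7 FPKM in siI1, and IGFBP5 in BE(2)-C moves from at most 16.8 to at least 32.7 FPKM.

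Promoter sequences from RefSeq (build GRCh38.p14) were available for 9 of the 10 genes; IGFBP1 was missing. The 250 bases before the start are shown for IGF1R (chr15:98648289-98648538, + strand), IGFBP4 (chr17:40443200-40443449, + strand) and IGFBP5 (chr2:216695550-216695799, - strand), the 3 genes that rose together in BE(2)-C. Capitals mark matches on either strand to the GC box, spelled GGGCGG. They also mark, again on either strand, the TATA box with the letters TATAAA. A variant of the latter, which was added to the search after the sequences had been seen, has the letters TATTTAA and could overlap it, but no window shown holds both.
IGF1R: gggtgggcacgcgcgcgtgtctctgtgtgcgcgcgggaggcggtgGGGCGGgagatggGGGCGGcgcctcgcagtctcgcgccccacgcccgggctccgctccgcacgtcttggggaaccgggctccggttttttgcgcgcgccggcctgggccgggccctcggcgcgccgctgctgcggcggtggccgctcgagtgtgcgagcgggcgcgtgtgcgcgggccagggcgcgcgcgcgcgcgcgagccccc
IGFBP4: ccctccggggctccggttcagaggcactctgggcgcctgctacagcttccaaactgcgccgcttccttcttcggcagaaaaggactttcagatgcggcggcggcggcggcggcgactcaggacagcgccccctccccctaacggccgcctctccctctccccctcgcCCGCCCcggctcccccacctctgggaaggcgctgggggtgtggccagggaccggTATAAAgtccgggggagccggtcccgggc
IGFBP5: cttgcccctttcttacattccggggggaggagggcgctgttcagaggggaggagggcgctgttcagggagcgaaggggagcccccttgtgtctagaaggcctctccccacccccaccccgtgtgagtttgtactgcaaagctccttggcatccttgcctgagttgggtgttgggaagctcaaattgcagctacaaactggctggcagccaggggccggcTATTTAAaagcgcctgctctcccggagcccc

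IGFBP4 holds the TATA box 29 bases and IGFBP5 the variant 31 bases before the start, whereas IGF1R holds neither. GC boxes stand in IGF1R at 205 and 192 bases and in IGFBP4 at 83 bases, and IGFBP5 has none. Of the 35116 promoter windows of this length in the table, 10.7% hold the TATA box, 4.17% the variant and 42.6% the GC box on either strand. The other members were searched in the same way, and 2 further motifs were looked for. The E-box, CACGTG, reads alike on both strands and occurs in 6.34% of windows; IGF2R holds it at 132, 74 and 28 bases before the start, and 0.0797% of windows hold 3 or more. The core of the insulin response element, CAAAACA on either strand, occurs in 4.30% of windows and in IRS2 at 40 bases. IRS1, which rose in Hep-G2, has 4 GC boxes and none of the other motifs. INSR and IGF2R, which were called in neither line, have 4 and 6 GC boxes. IRS2, which was not tested in Hep-G2 and not called in BE(2)-C, has 5, and 13.9% of windows hold 3 or more. A match describes letters in a window, and no match was tested against the changes.

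The 3 receptors and IRS2 hold seed matches of the microRNA let-7 in their 3′UTRs. These are shown because the siRNA target IGF2BP1 is a well-known let-7 target itself, with 4 such matches. The mature let-7a-5p (RefSeq, build GRCh38.p14) has its seed, bases 2 to 8, in capitals, and below it stand the sites in the 3′UTRs of the canonical transcripts (GENCODE v44, hg38), on the strand of each gene, with the letters that pair with the seed in capitals.
let-7a-5p: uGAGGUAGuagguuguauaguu
IGF1R: cccccaaacatttatCTACCTCa
IGF1R: tttgccagagtttgtCTACCTCt
IGF2R: cgtcagccccttcttCTACCTCt
INSR: ttttttcagcacagtCTACCTCa
IRS2: aaaacgaccacagtcCTACCTCa

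IRS1 and IGFBP1 to IGFBP5 hold no such match, and 9.71% of the 19229 3′UTRs searched hold at least 1. Longer 3′UTRs hold more of them by length alone: among 3′UTRs of similar length, the share with a match was 32.4% for IGF1R, 30.3% for IGF2R, 23.3% for INSR and 18.4% for IRS2, and 24.0% for IRS1 and 22.9% for IGFBP5, which hold none. Of the members with a match, IGF1R alone passed the test in BE(2)-C, where it rose. In Hep-G2 none of the 3 receptors passed, and IRS2 was not tested. The paralogs IGF2BP2 and IGF2BP3 hold 1 match each, and IGF2BP3 rose in BE(2)-C. The matches were not tested against the changes.

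After IGF2BP1 depletion, Hep-G2 cells held less mRNA of 3 binding proteins and more of the adaptor IRS1. IGFBP1 fell 3.81-fold, from 57.2 ± 6.53 to 15 ± 0.844 FPKM, IGFBP4 fell from 83.3 ± 5.80 to 59.3 ± 9.72 FPKM, and IGFBP2 from 2.02 ± 0.152 to 0.864 ± 0.572 FPKM (SD, n = 3). IRS1 rose 1.72-fold, from 6.45 ± 0.788 to 11.1 ± 1.68 FPKM. Of the 10 genes, 7 passed the filter on low values, and of these 1 rose, 3 fell and 3 did not pass the test. The 4 called genes were 57.1% of the 7 tested, against 44.8% of the 19436 genes tested in Hep-G2, of which 21.9% were higher and 23.0% lower in siI1. Among genes with at least 1 FPKM in 3 of the 6 libraries, 5 of 7 members and 7925 of 13055 genes were called. The median log2 fold change was -0.21 over the 7 and 0.01 over all tested genes. The 10 hepatocyte and hepatoblast markers moved in the same comparison: 7 rose and 2 fell, and they summed to 9077, 9039 and 8990 FPKM in siC and to 14353, 16097 and 16253 FPKM in siI1, with ALB the most abundant and none at 0; their part in the change of the liver gene IGFBP1 was not tested. Being bulk RNA, these libraries cannot tell fewer cells of a type from less RNA per cell.

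None of the 3 receptors passed the test in Hep-G2, where siI1 library 1 stood apart from the other siI1 libraries. Between replicates, the squared difference of a gene relative to its counting error averaged 13.8 and 14.3 for library 1 against libraries 2 and 3, and 1.98 between the latter; between siC libraries it was 2.28 to 5.32. IGF1R (ENSG00000140443, chr15:98648539-98964530, + strand) had 7.06, 6.59 and 7.11 FPKM in siC and 6.76, 5.63 and 5.79 FPKM in siI1. The siI1 libraries 2 and 3 lay below all controls and library 1 among them, and the log2 fold change was -0.19 (SE 0.09, adjusted p = 0.121). Without siI1 library 1 it was -0.27 and past the threshold (adjusted p = 0.0142), and it also passed with equal sums of FPKM (-0.36, adjusted p = 0.0441) and in a single fit over 12 libraries (adjusted p = 0.0387), within a range of 0.0142 to 0.397 over all alternatives. INSR (ENSG00000171105, chr19:7112255-7294414, - strand) had 4.83, 4.85 and 5.20 FPKM in siC and 4.27, 4.46 and 4.09 FPKM in siI1. All siI1 libraries were below all siC libraries, yet the change of -0.21 (SE 0.08) missed the threshold (adjusted p = 0.0603). It passed in 3 alternatives, with a filter at an FPKM of 1 (adjusted p = 0.0429), with equal sums of FPKM (0.0125) and with voom on reads (0.0373), out of a range of 0.0125 to 0.243. IGF2R (ENSG00000197081, chr6:159969082-160113507, + strand), the most abundant of the receptors, had 48.2, 42.7 and 46.3 FPKM in siC and 51.1, 39.1 and 41.2 FPKM in siI1. Its groups overlapped, with the highest value of all in siI1 library 1, and its change of -0.07 (SE 0.11, adjusted p = 0.623) became 0.02 with median centring, -0.19 without siI1 library 1 (adjusted p = 0.0478) and 0.01 without siI1 library 2 (adjusted p = 0.978).

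IRS1 (ENSG00000169047, chr2:226731312-226799820, - strand), the adaptor that links IGF1R and INSR to phosphatidylinositol 3-kinase, had 6.30, 5.76 and 7.31 FPKM in siC and 12.9, 9.53 and 10.9 FPKM in siI1. Every siI1 library exceeded every control. The log2 fold change was 0.77 (SE 0.13, 95% confidence interval 0.45 to 1.08, adjusted p = 0.0034), and IRS1 kept its call when any of the 6 libraries was left out, with values from 0.66 to 0.87. IRS2 (ENSG00000185950, chr13:109752695-109786583, - strand) received 8, 2 and 7 reads in siC and 0, 0 and 2 reads in siI1, which is at most 0.0633 FPKM. It was therefore not tested in Hep-G2, where 3 reads, the limit that a count of 0 allows, correspond to between 0.0237 and 0.0276 FPKM, as counting error alone.

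IGFBP1 (ENSG00000146678, chr7:45888360-45893660, + strand), the binding protein that hepatocytes release when insulin is low and whose gene FOXO factors switch on, had 50.3, 63.3 and 57.9 FPKM in siC and 14.1, 15.7 and 15.2 FPKM in siI1. The groups lay far apart, and the spread within siI1 was small. Its log2 fold change of -1.92 (SE 0.09, 95% confidence interval -2.14 to -1.70, adjusted p = 1.68e-05) kept its call in all 16 alternatives, with values from -2.08 to -1.82. IGFBP4 (ENSG00000141753, chr17:40443450-40457725, + strand), which mostly restrains IGF action until proteases cleave it, had 76.8, 88.1 and 84.8 FPKM in siC and 48.7, 61.6 and 67.7 FPKM in siI1. The groups did not overlap, and siI1 library 1 was the lowest. The log2 fold change was -0.50 (SE 0.12, 95% confidence interval -0.80 to -0.20, adjusted p = 0.0161). The call was lost without siC library 2 (-0.46, adjusted p = 0.0548) and without siC library 3 (-0.49, adjusted p = 0.0551), out of a range of 0.00108 to 0.0551.

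IGFBP2 (ENSG00000115457, chr2:216632828-216664436, + strand), a binding protein of fetal tissues that is often raised in tumours, had 1.85, 2.14 and 2.08 FPKM in siC of Hep-G2 and 0.388, 1.5 and 0.706 FPKM in siI1. All siI1 values were below the controls, but they were spread widely, with library 2 the highest and library 1 the lowest. The log2 fold change of -1.31 (SE 0.40, 95% confidence interval -2.27 to -0.35) passed the threshold with an adjusted p of 0.0357. The call was lost without siC library 1 (-1.37, adjusted p = 0.0775), siC library 2 (-1.27, 0.0921), siC library 3 (-1.29, 0.0931), siI1 library 1 (-0.90, 0.0501) or siI1 library 3 (-1.26, 0.0918), and also with no filter on low values (adjusted p = 0.0656) and with no mean-variance trend (0.0612). Without siI1 library 2 the change was -1.76 (adjusted p = 0.00449). Over all alternatives the change ranged from -1.76 to -0.74 and its adjusted p from 0.00304 to 0.0931. IGFBP3 (ENSG00000146674, chr7:45912245-45921874, - strand), the main carrier of IGFs in blood, received between 1 and 9 reads per Hep-G2 library and was not tested.

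IGFBP5 (ENSG00000115461, chr2:216672105-216695549, - strand), a binding protein that attaches to extracellular matrix, was at 0.01, 0.0797 and 0.0316 FPKM in siC of Hep-G2 and at 0, 2.62 and 0.0116 FPKM in siI1. The value of siI1 library 2 rested on 246 reads, while no other Hep-G2 library had more than 7, and the gene did not pass the filter. The same library held 7 more protein-coding genes with at least 0.5 FPKM that were below 0.1 FPKM in the other 5 libraries of the line, and these were looked for after the value of IGFBP5 had been seen. They were SFRP2 (3.89 FPKM), SLPI (3.46), CRABP1 (2.07), ISLR (1.08), CLEC3B (0.994), PTGDS (0.709) and MGP (0.651). By the same measure siI1 library 1 had 3 such genes, S100A12 (0.714 FPKM), CST7 (0.557) and S100A8 (0.515), on 5 to 7 reads each, and the remaining 4 libraries of Hep-G2 had 0. The 6 markers of fibroblasts and mesenchyme summed to 0.809, 0.905 and 0.973 FPKM in siC and to 0.635, 1.88 and 0.785 FPKM in siI1, with PDGFRB the most abundant (mean 0.53 FPKM). Of the 6, COL1A1, COL1A2, DCN and PRRX1 were highest in siI1 library 2, the latter 2 with 5 reads each and below 0.1 FPKM, whereas PDGFRB was highest in siC library 3 (0.713 FPKM, against 0.548 in siI1 library 2) and LUM in siI1 library 3 (0.149 FPKM, against 0.0457). COL1A2 had 0.474 FPKM in siI1 library 2 and at most 0.0243 FPKM elsewhere in Hep-G2. Of these genes, BE(2)-C held CRABP1 at 63.2 to 152 FPKM, MGP at 1.19 to 6.15 FPKM, ISLR at 1.54 to 3.56 FPKM and SLPI at up to 0.840 FPKM, while SFRP2 did not exceed 0.223 FPKM, CLEC3B did not exceed 0.0585 FPKM and PTGDS had no read. The part of these transcripts in the IGFBP2 value of this library was not tested. The immune and endothelial markers summed to 0.798, 1.01 and 0.805 FPKM in siC and to 2.72, 2.25 and 2.18 FPKM in siI1, nearly all of it CD14, and PTPRC and CD3E had 6 and 7 reads in siI1 library 1 and at most 1 in any other.

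**Figure D2:**
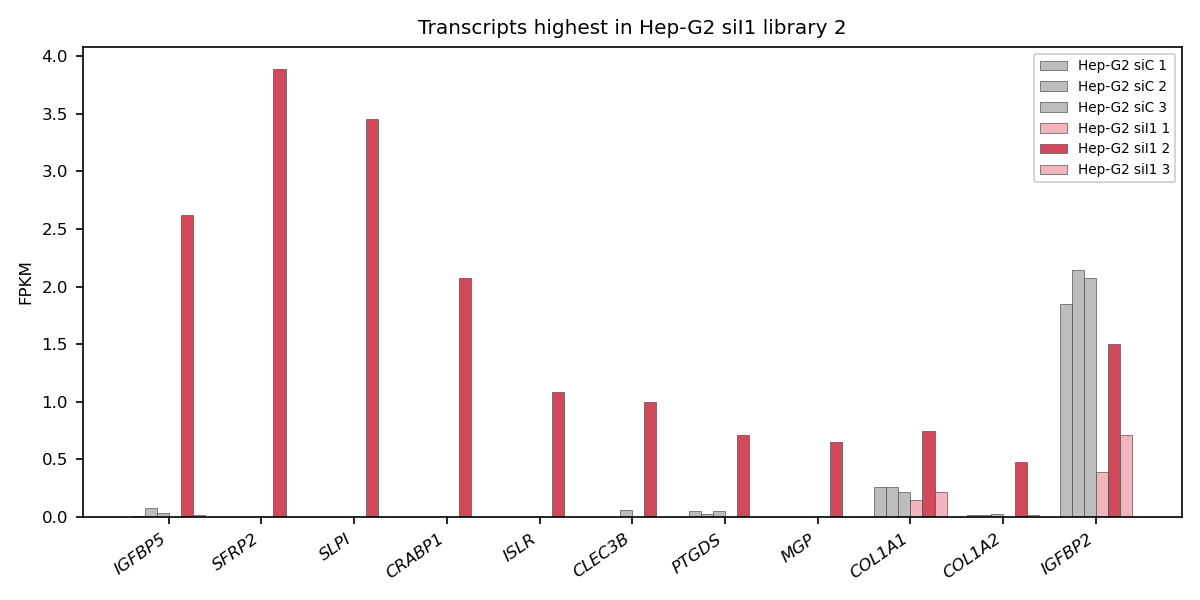
Bars give the FPKM in each of the 6 Hep-G2 libraries for IGFBP5, for the 7 other genes above 0.5 FPKM in siI1 library 2 alone, for COL1A1 and COL1A2 and for IGFBP2, on a linear axis from 0. Library 2 of siI1 (red) holds 2.62 FPKM of IGFBP5 and 3.89 FPKM of SFRP2 where the other libraries are at or near 0, and it has the highest IGFBP2 value of the siI1 libraries.

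In BE(2)-C, IGF2BP1 depletion was followed by more mRNA of the receptor IGF1R and of the binding proteins IGFBP4 and IGFBP5. IGFBP5 rose 2.08-fold, from 16.0 ± 1.20 to 33.3 ± 1.03 FPKM, IGFBP4 rose 1.57-fold, from 196 ± 17.5 to 307 ± 8.75 FPKM, and IGF1R rose 1.34-fold, from 10.3 ± 0.405 to 13.8 ± 0.151 FPKM (SD, n = 3). Of the 10 genes, 9 passed the filter, and of these 3 rose, 0 fell and 6 did not pass the test. Those 3 were 33.3% of the 9 tested, against 28.2% of the 18656 genes tested in BE(2)-C, of which 13.3% were higher and 14.8% lower in siI1. With the filter at an FPKM of 1, it was 3 of 8 members against 5110 of 12337 genes. The median log2 fold change was 0.13 over the 9 and 0.02 over all tested genes. Of the 10 neuroblast markers, 3 rose and 4 fell, and they summed to 3857, 3627 and 3650 FPKM in siC and to 4069, 3951 and 4027 FPKM in siI1, with MYCN the most abundant and none at 0; their part in the changes of the members was not tested.

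IGF1R had 10.5, 9.82 and 10.5 FPKM in siC of BE(2)-C and 13.9, 13.6 and 13.8 FPKM in siI1. All siI1 libraries were above all controls, within a narrow range. The log2 fold change was 0.42 (SE 0.05, 95% confidence interval 0.30 to 0.54, adjusted p = 0.00147), and it kept its call in all 16 alternatives, from 0.38 to 0.46. IGF2R had 12.6, 11.6 and 12.7 FPKM in siC and 13.8, 13.6 and 13.2 FPKM in siI1. These groups did not overlap either, but the change of 0.13 (SE 0.05) did not pass the test (adjusted p = 0.112) except with median centring (0.17, adjusted p = 0.0489), out of a range of 0.0489 to 0.3. INSR lay between 1.35 and 1.93 FPKM in the 6 libraries, with overlapping groups (log2 fold change -0.17, SE 0.15, adjusted p = 0.45; -0.05 without siC library 3 and -0.28 without siC library 2).

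Neither adaptor passed the test in BE(2)-C. IRS2 had 6.98, 6.89 and 7.53 FPKM in siC and 7.32, 8.15 and 8.05 FPKM in siI1. Library 1 of siI1 lay within the controls, and the log2 fold change was 0.13 (SE 0.07, adjusted p = 0.194). IRS1 had 1.40, 1.29 and 1.79 FPKM in siC and 1.40, 1.32 and 1.37 FPKM in siI1. The groups overlapped, siC library 3 was the highest, and the change of -0.11 (SE 0.15, adjusted p = 0.622) was 0.02 without that library (adjusted p = 0.948).

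IGFBP5 had 16.8, 14.6 and 16.7 FPKM in siC of BE(2)-C and 32.7, 32.7 and 34.5 FPKM in siI1. The lowest siI1 library thus lay well above the highest control. The log2 fold change was 1.05 (SE 0.06, 95% confidence interval 0.90 to 1.20, adjusted p = 0.000169), and IGFBP5 was past the threshold in 15 of 16 alternatives. The exception was a single fit over 12 libraries with a shared spread, to which Hep-G2 siI1 library 2 also contributes its 2.62 FPKM (adjusted p = 0.464, out of a range of 4.08e-15 to 0.464). IGFBP4 had 215, 193 and 180 FPKM in siC and 317, 304 and 301 FPKM in siI1. The groups were again separate, and the log2 fold change of 0.65 (SE 0.07, 95% confidence interval 0.49 to 0.82, adjusted p = 0.000976) passed in all 16 alternatives, from 0.59 to 0.72. Beside these genes, the mesenchymal markers LUM and DCN rose in BE(2)-C, by 1.08 (adjusted p = 0.000331) and 0.66 (adjusted p = 0.000982) on the log2 scale, and the 6 markers of that list summed to 28.8, 25.0 and 29.3 FPKM in siC and to 36.0, 37.3 and 35.6 FPKM in siI1. PDGFRB was the most abundant of them with a mean of 16.0 FPKM (log2 fold change -0.10, adjusted p = 0.464), PRRX1 remained below 0.1 FPKM in every library, and the part of these transcripts in the changes of IGFBP4 and IGFBP5 was not tested. The immune and endothelial markers summed to 2.34, 1.34 and 2.03 FPKM in siC and to 0.646, 1.21 and 0.709 FPKM in siI1, again mostly CD14.

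IGFBP2, the second binding protein of this line by level, had 149, 127 and 126 FPKM in siC and 128, 124 and 125 FPKM in siI1. The groups overlapped, since siI1 library 1 exceeded siC libraries 2 and 3. The highest value was that of siC library 1, and the log2 fold change of -0.09 (SE 0.07, adjusted p = 0.392) was -0.01 without siC library 1. IGFBP3 had 0.427, 0.444 and 0.250 FPKM in siC and 0.594, 0.820 and 0.473 FPKM in siI1, on 16 to 53 reads per library. All siI1 libraries were above all controls, and the change of 0.62 (SE 0.28, 95% confidence interval -0.04 to 1.29) did not pass the test (adjusted p = 0.148), except with voom on reads (0.75, adjusted p = 0.0415, out of a range of 0.0415 to 0.36). IGFBP1 had 0 reads in all 6 BE(2)-C libraries, which allows up to between 0.117 and 0.142 FPKM per library.

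**Figure D3:**
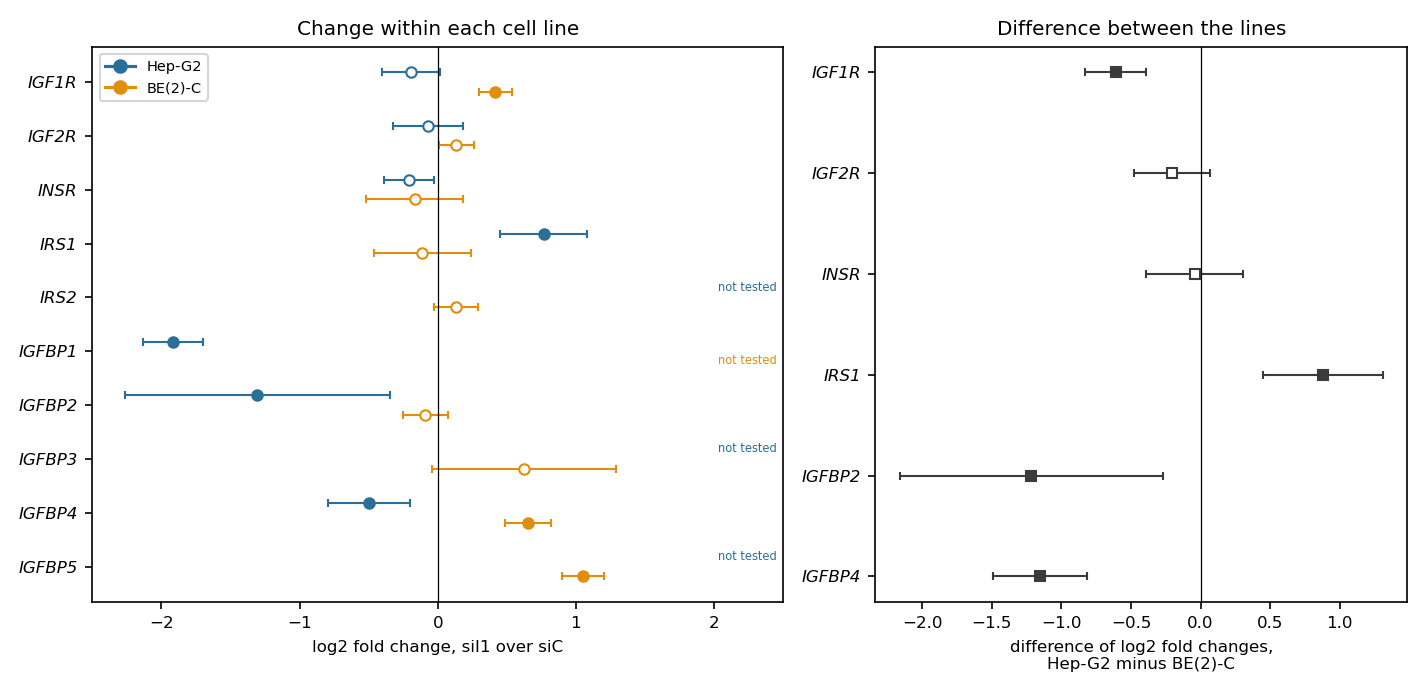
The left panel gives the log2 fold change of siI1 over siC for the 7 genes tested in Hep-G2 (blue) and the 9 tested in BE(2)-C (orange), the right panel the difference of these changes for the 6 tested in both, and bars are 95% confidence intervals from limma. Filled symbols passed the threshold: IGFBP4 lies at -0.50 in Hep-G2 and at 0.65 in BE(2)-C.

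The changes of the lines were then compared directly, for the 6 genes that had passed the filter in both. Per the authors' methods, the lines also differed in medium and in siRNA concentration, which was higher for BE(2)-C, and these cannot be separated from the line. Of these 6, 4 differed between the lines, which is 66.7%, against 40.2% of the 15362 genes tested for a difference (18.5% positive and 21.7% negative). With the filter at an FPKM of 1, it was 4 of 6 members against 5451 of 10029 genes. The median difference was -0.41 over the 6 and -0.04 over all tested genes. IGFBP4 fell in Hep-G2 and rose in BE(2)-C, with a difference of -1.15 (SE 0.15, adjusted p = 0.000151), and IGF1R, which rose in BE(2)-C, differed by -0.61 (SE 0.10, adjusted p = 0.000594). IRS1 differed by 0.88 in the other direction (SE 0.20, adjusted p = 0.00418). These 3 differences passed in all 21 alternatives. Over all alternatives the difference of IGFBP2 ranged from -1.67 to -0.65. IGFBP2 differed by -1.22 in the main fit (SE 0.43, adjusted p = 0.0422), and this call held in 8 of 21 alternatives only. It was lost when any one library was left out other than Hep-G2 siI1 libraries 1 and 2, with differences from -1.29 to -1.17 and adjusted p from 0.0567 to 0.0801 in those 10 fits, and also with no filter, with no trend and with median centring, whereas without Hep-G2 siI1 library 1 the difference was -0.81, still past the threshold, and without Hep-G2 siI1 library 2 it was -1.67 (adjusted p = 0.000325). IGF2R differed by -0.21 (SE 0.12, adjusted p = 0.22), and by -0.32 without Hep-G2 siI1 library 1 (adjusted p = 0.00853). INSR differed by -0.04, with a 95% confidence interval of -0.39 to 0.31, and by 0.06 without BE(2)-C siC library 2 and 0.01 with median centring. IRS2, IGFBP1, IGFBP3 and IGFBP5 passed the filter in a single line, and their differences were not tested under it.

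The mixture of IGFBP transcripts moved towards IGFBP4 in both lines, while its total went opposite ways; these sums and shares carry no test. In Hep-G2, the summed FPKM of IGFBP1 to IGFBP6 was 153, 181 and 171 in siC and 70.4, 93.3 and 95.2 in siI1. No siI1 library came near the controls, and the mean went from 168 ± 14.2 to 86.3 ± 13.8. IGFBP1 took 33.9% ± 1.06 of this sum in siC and 17.6% ± 2.11 in siI1, and IGFBP4 49.5% ± 0.753 and 68.8% ± 2.55. In BE(2)-C, the sum was 381, 336 and 323 FPKM in siC and 479, 462 and 461 FPKM in siI1, with no overlap. There IGFBP4 took 56.5% ± 0.941 in siC and 65.8% ± 0.446 in siI1, IGFBP2 38.6% ± 0.698 and 26.9% ± 0.155, and IGFBP5 4.64% ± 0.452 and 7.13% ± 0.334. The plot of IGFBP sums and shares shows both per library. Among the receptors, the ratio of IGF1R to INSR was 1.40 ± 0.0566 in siC and 1.42 ± 0.160 in siI1 of Hep-G2, and 6.40 ± 0.854 and 9.65 ± 0.495 in BE(2)-C, where the lowest siI1 ratio of 9.29 exceeded the highest control ratio of 7.11.

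**Figure D4:**
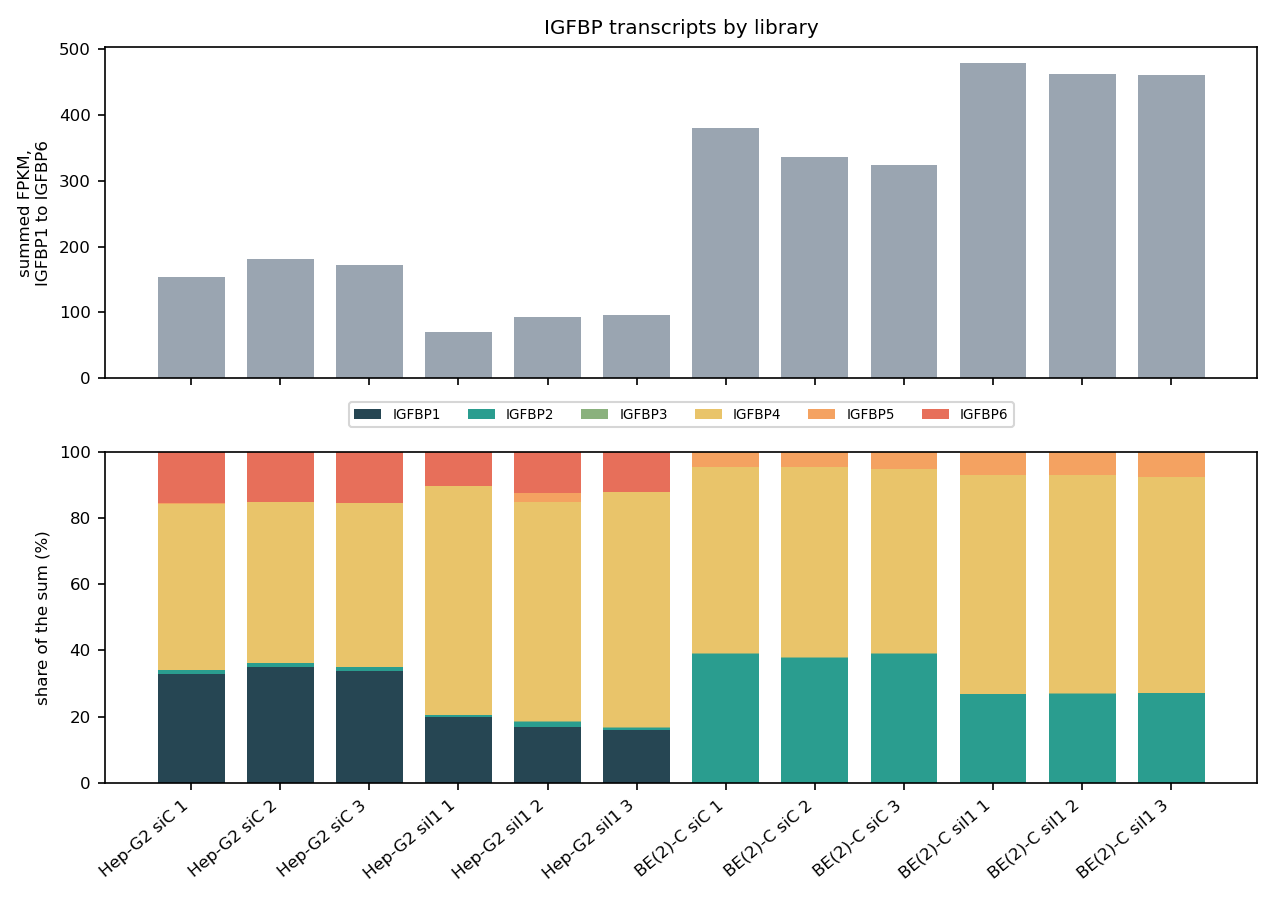
The upper panel gives the summed FPKM of IGFBP1 to IGFBP6 in each of the 12 libraries, the lower panel the share of each gene in that sum in percent. In Hep-G2 the sum is lower in siI1 and the IGFBP1 share shrinks from 33.9% to 17.6%, while in BE(2)-C the sum is higher and the IGFBP4 share grows from 56.5% to 65.8%.

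Among the members, 2 pairs are neighbours. IGFBP2 and IGFBP5 end 7668 bases from each other on chromosome 2, facing tail to tail, and in BE(2)-C IGFBP5 rose while IGFBP2 had a log2 fold change of -0.09. IGFBP1 and IGFBP3 lie 18584 bases apart on chromosome 7, where Hep-G2 had 50.3 to 63.3 FPKM of the former in siC and at most 9 reads of the latter. Some exons overlap other genes: IGFBP5 shares 487 exon bases, 7.53% of its exons, with DIRC3-AS1 on the opposite strand, IGF2R shares 571 bases with the pseudogene CHP1P2 on the same strand, and IRS2 shares 115 bases with a noncoding gene on the opposite strand. IGF2BP3, the paralog that rose in BE(2)-C, shares 1521 exon bases, 17.8% of its exons, with the protein-coding gene MALSU1 on the opposite strand. The libraries were strand-specific, but whether the authors counted reads by strand is not stated, so reads from such stretches may be missing from or added to these genes.

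For IGFBP2, IGFBP4 and IRS1, the members tested in both lines with the largest summed changes, the 2 protein-coding genes with the most similar values over the 12 libraries were looked up among 11083 genes. Likeness is given as the root mean square difference of log2 values relative to the siC mean of each line. IGFBP4 was followed most closely by the cadherin gene CDH24 (0.12) and the integrin gene ITGB5 (0.12), IRS1 by SCARB2, which encodes a lysosomal membrane protein (0.09), and SYNE1, which encodes a protein of the nuclear envelope (0.12), and IGFBP2 by RPP25 (0.24) and IKBKG (0.25). ITGB5, for example, fell by 0.65 on the log2 scale in Hep-G2 and rose by 0.73 in BE(2)-C.

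The genes around the receptors were followed through lists of the pathway. Over the 93 genes of these lists, 80 were tested in Hep-G2, of which 22 rose and 29 fell (63.7% called, median log2 fold change -0.17), and 77 in BE(2)-C, of which 21 rose and 12 fell (42.9%, median 0.01). Over all tested genes the share was 44.8% with a median of 0.01 in Hep-G2 and 28.2% with a median of 0.02 in BE(2)-C. Of the 72 listed genes tested for a difference between the lines, 16 differed with a positive and 22 with a negative sign (52.8%, median -0.14), against 40.2% of all genes tested (median -0.04). These shares over all genes include many weakly expressed genes and were higher with the filter at an FPKM of 1. Called there were 7925 of 13055 genes in Hep-G2, 5110 of 12337 in BE(2)-C and 5451 of 10029 for the difference. The lists were not counted under that filter. Among the ligands and other carriers, 4 of 7 genes were tested in each line, with 2 up and 2 down in Hep-G2 (median 0.64) and 2 up and 0 down in BE(2)-C (median 0.15). IGF2 (ENSG00000167244), the fetal ligand of IGF1R, had 48.8, 51.0 and 53.0 FPKM in siC of Hep-G2 and 245, 267 and 279 FPKM in siI1. It rose about as strongly in each siI1 library, by 2.37 on the log2 scale (SE 0.07, adjusted p = 3.01e-06). In BE(2)-C, IGF2 had 452, 430 and 374 FPKM in siC and 558, 506 and 496 FPKM in siI1, with separate groups and a log2 fold change of 0.32 (SE 0.08, adjusted p = 0.0319). That call was lost without siC library 2 (0.34), siC library 3 (0.24), siI1 library 1 (0.26), siI1 library 2 (0.33) or siI1 library 3 (0.35), with no filter and with no trend, within a range of adjusted p of 9.27e-06 to 0.0939. IGF2 also shares 1460 exon bases with INS-IGF2 on the same strand. IGF1 and INS had at most 0.034 and 0.101 FPKM in any library of either line.

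IGFALS, the subunit that IGF and IGFBP3 need to form the large complex of blood, rose in Hep-G2 from 0.952 ± 0.217 to 5.08 ± 0.155 FPKM (log2 fold change 2.32, adjusted p = 7.48e-05) and was not tested in BE(2)-C. IGFBP6, which prefers IGF2, fell in Hep-G2 by 1.37 (25.9 ± 1.77 to 10.2 ± 2.48 FPKM, adjusted p = 0.001) and had a mean of 0.442 FPKM in siC of BE(2)-C (log2 fold change -0.64, adjusted p = 0.259). IGFBP7, a related protein with low affinity for IGFs, fell by 1.03 in Hep-G2 (adjusted p = 0.000435) and rose by 0.47 in BE(2)-C (adjusted p = 0.00087). IGFBPL1 had means of 104 and 103 FPKM in BE(2)-C (adjusted p = 0.839) and was not tested in Hep-G2. Among the other receptors, INSRR, an orphan relative of INSR, rose in BE(2)-C from 0.704 ± 0.0927 to 1.70 ± 0.236 FPKM (adjusted p = 0.00289) and was not tested in Hep-G2. M6PR, which shares the lysosomal cargo of IGF2R, fell in Hep-G2 by 0.21 (adjusted p = 0.0182) and rose in BE(2)-C by 0.22 (adjusted p = 0.0309). These were small changes: in Hep-G2 the call was lost without siC library 1 (-0.22), siC library 3 (-0.19), siI1 library 2 (-0.21) or siI1 library 3 (-0.18) and with median centring (-0.12), in BE(2)-C without siC library 1 (0.21), siC library 2 (0.18), siI1 library 1 (0.19), siI1 library 2 (0.24) or siI1 library 3 (0.22), and in both without a trend. The 2 genes of that list gave 0 up and 1 down of 1 tested in Hep-G2 and 2 up of 2 in BE(2)-C.

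The proteases that release IGFs from binding proteins and their inhibitors showed 0 up and 2 down of 5 tested in Hep-G2 (median -0.30) and 4 up and 1 down of 7 in BE(2)-C (median 0.43). STC2, an inhibitor of the IGFBP4 protease PAPPA, had 20.4, 20.1 and 20.2 FPKM in siC of Hep-G2 and 11.3, 11.2 and 11.4 FPKM in siI1. Its replicates hardly differed, and it fell by 0.84 (adjusted p = 2.6e-05), whereas in BE(2)-C it rose by 0.43 (adjusted p = 0.00127), as IGFBP4 did in either line. PAPPA itself had at most 0.0447 FPKM and its relative PAPPA2 at most 0.0201 FPKM in any library of either line. ADAM9, a protease that can cleave IGFBP5, fell by 0.97 in Hep-G2 (adjusted p = 0.00378). MMP2 rose in BE(2)-C by 0.62 (adjusted p = 0.000756), a call lost in a single fit over 12 libraries (adjusted p = 0.144, out of a range of 9.84e-12 to 0.144), and ADAM12 rose by 0.51 (adjusted p = 0.00186).

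Adaptors and regulators of receptor signalling were 7 up and 6 down of 23 tested in Hep-G2 (median -0.17) and 3 up and 3 down of 20 in BE(2)-C (median 0.05). SHC1, which couples IGF1R and INSR to RAS beside the IRS proteins, fell by 1.00 in Hep-G2 (adjusted p = 1.56e-05) and rose by 0.46 in BE(2)-C (adjusted p = 0.00192), opposite to IRS1 in Hep-G2 and alongside IGF1R in BE(2)-C. GRB10, an inhibitory adaptor of both receptors, fell by 1.49 in Hep-G2 (adjusted p = 2.12e-05) and was not tested in BE(2)-C. PTPN1, the phosphatase that switches off INSR, fell by 0.68 in Hep-G2 (adjusted p = 0.000142). SOCS1, which can direct IRS proteins to degradation, rose by 1.85 in Hep-G2 (adjusted p = 7.13e-05) and by 1.26 in BE(2)-C (adjusted p = 0.00334), where it rested on 6 to 21 reads per library and its value ranged from 0.58 to 1.43 over the alternatives.

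Of the genes for phosphatidylinositol 3-kinase, AKT, mTOR and FOXO proteins, 7 rose and 14 fell of 31 tested in Hep-G2 (median -0.18), and 5 rose and 6 fell of 30 in BE(2)-C (median -0.03). PIK3R3, a regulatory subunit of the kinase that binds IRS1, rose by 1.33 in Hep-G2 (adjusted p = 2.39e-05) and by 0.94 in BE(2)-C (adjusted p = 0.00166). FOXO4, a transcription factor that AKT keeps out of the nucleus, fell by 0.76 in Hep-G2 (adjusted p = 7.54e-05) and by 0.54 in BE(2)-C (adjusted p = 0.00653). Of the genes known as FOXO targets, to which IGFBP1 also belongs, 6 rose and 4 fell of 16 tested in Hep-G2 (median 0.00) and 5 rose and 2 fell of 14 in BE(2)-C (median 0.04). PIK3IP1, an inhibitor of phosphatidylinositol 3-kinase, rose by 2.48 in Hep-G2 (adjusted p = 1.14e-05), and CITED2 rose there by 0.99 (adjusted p = 8.2e-05). TRIB1 fell in Hep-G2 by 1.34 (adjusted p = 1.36e-05) as IGFBP1 did. So did PPARGC1A, a coactivator of fasting metabolism, by 1.12 (adjusted p = 0.00403), and SOD2, by 0.40 (adjusted p = 0.000586). The log2 fold change of PPARGC1A ranged from -1.27 to -0.55 over the alternatives. BCL2L11, which encodes the death factor BIM, rose in both lines, by 0.81 in Hep-G2 (adjusted p = 0.000659) and 0.93 in BE(2)-C (adjusted p = 0.000306). The listed targets thus went both ways in the line in which IGFBP1 fell.

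**Figure D5:**
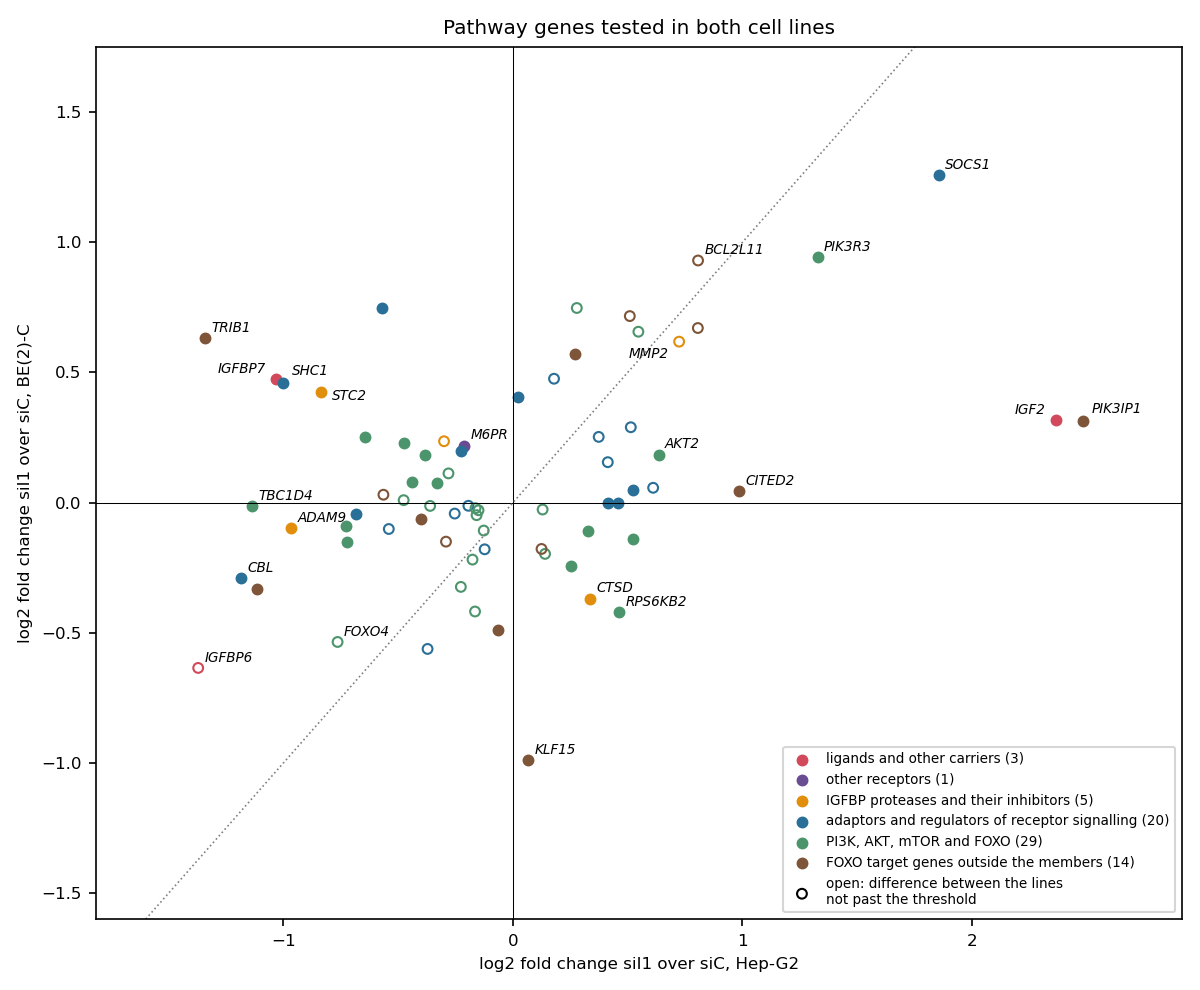
Each point is a pathway gene outside the 10 that was tested in both lines, placed by its log2 fold change of siI1 over siC in Hep-G2 (x axis) and BE(2)-C (y axis) and coloured by its list, with filled points where the changes differed between the lines and a dotted line of equal change. SHC1, STC2 and IGFBP7 fell in Hep-G2 and rose in BE(2)-C, and IGF2 lies at 2.37 in Hep-G2 and 0.32 in BE(2)-C.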

How the data were processed

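Hep-G2 and BE(2)-C cells had been sequenced as 3 libraries per line and siRNA. Per the submitters' notes, the authors trimmed reads with cutadapt 1.14, aligned them to hg38 with HISAT2 2.1.0, sorted them with SAMtools 1.5, counted them per gene with featureCounts 1.5.3 and normalised with edgeR 3.30.3. The authors deposited FPKM values for 58174 genes per line; the unit was read from the values, since FPKM times gene length falls on whole multiples of 1 step per library, which also gives back the reads. The deposited tables also hold the authors' log2 fold changes, p-values and FDR, which were not used. Each line was fitted with limma 3.58.1 (lmFit, eBayes with a mean-variance trend, R 4.3.3) on log2(FPKM + 0.1), for genes with at least 0.1 FPKM in 3 of its 6 libraries. P-values were adjusted by Benjamini and Hochberg over all tested genes, and calls required an adjusted p below 0.05. The change in Hep-G2 minus that in BE(2)-C came from 1 fit of 12 libraries over genes that passed in both lines. The fits of each line were tested on simulated data with known changes: the estimates centred on the true values, the share of unchanged genes among the calls lay slightly above the threshold in both lines, and many genes with the smaller true changes were not called. Alternatives were other constants, filters and scalings, voom on recovered reads, no trend, a replicate block, a shared fit, an adjusted p below 0.01 and leaving out each library in turn. Where alternatives are counted or a range over them is given for a single gene, the adjusted p below 0.01 is left out. Reads on genes numbered 12852988 to 15721210 per library, and a count of 0 allows up to 3 reads. Floors cover counting error only. Named genes are the 10 members, IGF2BP1 and its paralogs, all ligands, carriers and other receptors, from every other pathway list and line up to 3 called genes per direction with the smallest p-values, the 2 genes most similar to each of 3 members, and the markers; others were chosen after their values were seen. Of the listed genes, 1 is counted in its list but not reported here. The members and lists were chosen with earlier results of these data known. Tables were computed with Python 3.11.15, numpy 2.4.6 and pandas 2.3.3, figures with matplotlib 3.10.9.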

Additional observations from a re-analysis of the deposited data

Results flagged for a closer look

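All results listed here were noted because the change after IGF2BP1 depletion differed between the 2 lines in a direct test (Hep-G2 minus BE(2)-C, log2 scale, adjusted p below 0.05). They cover the genes that the rule given under the methods names. Over the whole lists, named genes included, 4 positive and 6 negative differences were called among 20 adaptors and regulators tested (50%). Of the 29 genes tested for phosphatidylinositol 3-kinase, AKT, mTOR and FOXO proteins, 6 had a positive and 8 a negative difference (48.3%). The share over all tested genes was 40.2%, and with the filter at an FPKM of 1, 5451 of 10029 genes were called. Among the members the flagged differences were those of IGF1R (-0.61), IRS1 (0.88), IGFBP2 (-1.22) and IGFBP4 (-1.15), and among the paralogs of the siRNA target that of IGF2BP3 (-0.45). Among ligands, carriers and receptors they were IGF2 (2.05), IGFBP7 (-1.51) and M6PR (-0.43), and among proteases and their inhibitors STC2 (-1.26), ADAM9 (-0.87) and CTSD (0.70). Adaptors and regulators named by the rule were SHC1 (-1.46), SH2B1 (0.48), PTPN1 (-0.64), PTPRF (0.46), SOCS1 (0.60) and CBL (-0.89), and the kinase branch PIK3R3 (0.38), AKT2 (0.45), RPS6KB2 (0.88) and TBC1D4 (-1.12). The FOXO targets were PPARGC1A (-0.78), TXNIP (-0.30), KLF15 (1.06), CITED2 (0.94), TRIB1 (-1.97), GADD45A (0.43), SOD2 (-0.34) and PIK3IP1 (2.17). The cell type markers were GPC3 (-1.29) and CD14 (2.59). In BE(2)-C, GPC3 rested on 1, 5 and 4 reads in siC and on 29, 15 and 14 reads in siI1. CD14 rested there on 16 to 63 reads per library and in Hep-G2 on 19 to 59. The markers were not followed through the alternatives.

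Some of these calls were lost when a library was left out. For SOCS1 this held without Hep-G2 siC library 1 or 2, siI1 library 2 or 3, or BE(2)-C siC library 2 or 3, siI1 library 1 or 2, with values from 0.49 to 0.61, and over all alternatives the SOCS1 difference ranged from 0.41 to 1.10. For PIK3R3 it held without any of the 6 Hep-G2 libraries or BE(2)-C siC library 2 or 3, siI1 library 1 or 3 (0.29 to 0.42). For PPARGC1A it held without Hep-G2 siC library 1 or 3 or siI1 library 2 (-0.76 to -0.68), and over all alternatives the PPARGC1A difference ranged from -0.95 to -0.40. For TXNIP it held without Hep-G2 siC library 2, siI1 library 2 or 3, or BE(2)-C siC library 2 or 3, siI1 library 1 or 3 (-0.30 to -0.23), and for IGFBP2 without 10 of the 12 libraries (-1.29 to -1.17). Other settings also ended calls: equal sums of FPKM for PTPRF (0.28, adjusted p = 0.0981), GADD45A (0.24, adjusted p = 0.0706), PIK3R3 (0.20, adjusted p = 0.35) and SOCS1 (0.41, adjusted p = 0.12), voom for SOCS1 (0.49, adjusted p = 0.423), a constant of 0.01 for SOCS1 (0.44, adjusted p = 0.134), median centring for TXNIP (-0.25, adjusted p = 0.0637) and IGFBP2 (-1.17, adjusted p = 0.0502), no trend for PIK3R3, TXNIP and IGFBP2, and no filter for PIK3R3 and IGFBP2. The range of adjusted p over all alternatives was 0.000905 to 0.0981 for PTPRF, 0.00162 to 0.0706 for GADD45A, 0.02 to 0.35 for PIK3R3, 0.000134 to 0.423 for SOCS1, 0.0018 to 0.0766 for TXNIP and 0.000325 to 0.0801 for IGFBP2.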

How the results depend on the processing

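Of 107 tested values, 104 kept their direction in every alternative. Leaving aside the adjusted p below 0.01, 22 lost a call in at least 1 alternative and 6 gained one. Over the alternatives, the 3 members called in BE(2)-C became 2 to 4, and the 4 called for the difference became 3 to 5. In Hep-G2, 4 members were called. There were 2 at an adjusted p below 0.01, 2 to 5 when a library was left out, and 6 with equal sums of FPKM. The 8713 genes called there became 5721 at an adjusted p below 0.01 and 6895 to 9547 when a library was left out, the most without siI1 library 1, the 5252 of BE(2)-C became 2614, and 3414 to 4419 when a library was left out, and the 6180 differences became 4071, and 5323 to 7065 when a library was left out, again the most without Hep-G2 siI1 library 1; a stricter threshold calls fewer genes by construction, and the cause of the other moves was not tested. The log2 fold change of IGF2R in Hep-G2 was 0.0216 with median centring and ranged from -0.187 to 0.00529 when a library was left out, that of IRS1 in BE(2)-C from -0.203 to 0.0164, and the INSR difference from -0.163 to 0.0642, and was 0.0108 with median centring; none of these was called in the main analysis, and the cause was not tested. Scaling moved the balance of directions both ways: from 4250 up and 4463 down in Hep-G2 to 3211 and 5835 with equal sums of FPKM and to 5015 and 3693 with median centring, from 2489 and 2763 in BE(2)-C to 2586 and 2605 and to 2872 and 2390, and from 2843 positive and 3337 negative differences to 2039 and 4532 and to 3228 and 2964. With the replicate number as a replicate block, 4, 3 and 4 members and 8820, 4672 and 6295 genes were called in Hep-G2, in BE(2)-C and for the difference. Same-numbered libraries correlated at 0.0625, 0.0351 and -0.00619 in Hep-G2 and at 0.0225, -0.0102 and -0.00283 in BE(2)-C, and not every library correlated best with its own number. IGFBP3 in BE(2)-C did not pass the filter at an FPKM of 1. Depth limits IRS2, IGFBP3 and IGFBP5 in Hep-G2, which had under 10 reads in nearly every library.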
